A study of Mus musculus with 14 samples.

Results

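The genes described here are 9 components of cytosolic nucleic acid sensing: Ddx58 (also named Rigi), Ifih1, Dhx58 and Mavs of the RNA arm, Cgas and Tmem173 (also named Sting1) of the DNA arm, Zbp1, the kinase gene Tbk1 and the nuclease gene Trex1. The set was chosen by gene function, with earlier results of these data known, and the genes were found by Ensembl identifier. All 9 were present among the 47937 genes of the deposited table. Reads were counted in 14 libraries of poly(A) RNA. The cells were wild-type (WT) bone marrow-derived macrophages of the mouse, cultured from precursors in the marrow. There were 3 libraries of cells given mast cell intracellular trap supernatant (trap supernatant below), 5 of cells given mast cell supernatant and 6 of untreated cells. Treatments lasted 3.5 h. The labels give each library 1 of 3 batches. Batches 1 and 3 each held 1 trap, 2 mast cell and 2 untreated libraries, and batch 2 held 1 trap, 1 mast cell and 2 untreated libraries. How the supernatants were made, and whether libraries of a group came from separate cultures or mice, is not stated by the labels. The p-values therefore measure the spread between these libraries, which may be technical.

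Cells use these proteins to detect DNA and RNA that lie in the cytosol, where foreign or misplaced nucleic acid is met. RIG-I (Ddx58) and MDA5 (Ifih1) bind double-stranded RNA and pass the signal to the mitochondrial adaptor MAVS, while cGAS (Cgas) binds DNA and makes a cyclic dinucleotide that activates STING (Tmem173). Both arms meet at TBK1, the kinase that phosphorylates IRF3 and so turns on type I interferon genes, and several of the sensor genes are themselves interferon-stimulated.

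Total counts were 12414738 to 16491536 in trap supernatant libraries, 11729073 to 16123421 in mast cell supernatant libraries and 13455686 to 22720419 in untreated libraries. All 10 macrophage markers were detected in every group, with summed levels of 9165 to 19346 counts per 1000000 counts (CPM, scaled by TMM) in trap, 9134 to 20560 CPM in mast cell and 9299 to 18994 CPM in untreated libraries. Markers of mast cells moved with the treatment: the 19 genes of that list summed to 281 to 2391 CPM with trap supernatant and 268 to 1720 CPM with mast cell supernatant, against 189 to 210 CPM in untreated cells, where 13 of the 19 had a count and 6, among them the tryptase genes Tpsab1 and Tpsb2, were at 0. Of the 18 list genes tested, 10 were higher with trap supernatant and 12 with mast cell supernatant, and none was lower. None of the 14 neutrophil markers tested passed the threshold in either comparison. The part of mast cell RNA in the results below was not tested.

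In untreated macrophages 8 of the 9 genes were detected, and their levels per kilobase of exon spanned a wide range. Tbk1 was highest at 24.9 ± 2.58 CPM per kb (SD, n = 6 here and for the other untreated levels), followed by Tmem173 at 22.4 ± 3.18 CPM per kb. Mavs stood at 13.4 ± 0.545, Dhx58 at 10.8 ± 2.75 and Ddx58 at 9.48 ± 2.20 CPM per kb. Ifih1 stood at 7.38 ± 1.37, Zbp1 at 5.05 ± 1.69 and Cgas at 4.65 ± 0.922 CPM per kb. Thus STING was covered several times more densely than cGAS, the enzyme upstream of it, in every untreated library. Neighbours in this order overlapped between libraries except at 2 places: the lowest Tmem173 library (18.1 CPM per kb) lay above the highest Mavs library (13.95 CPM per kb), and Trex1 lay apart at 0.

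**Figure D1:**
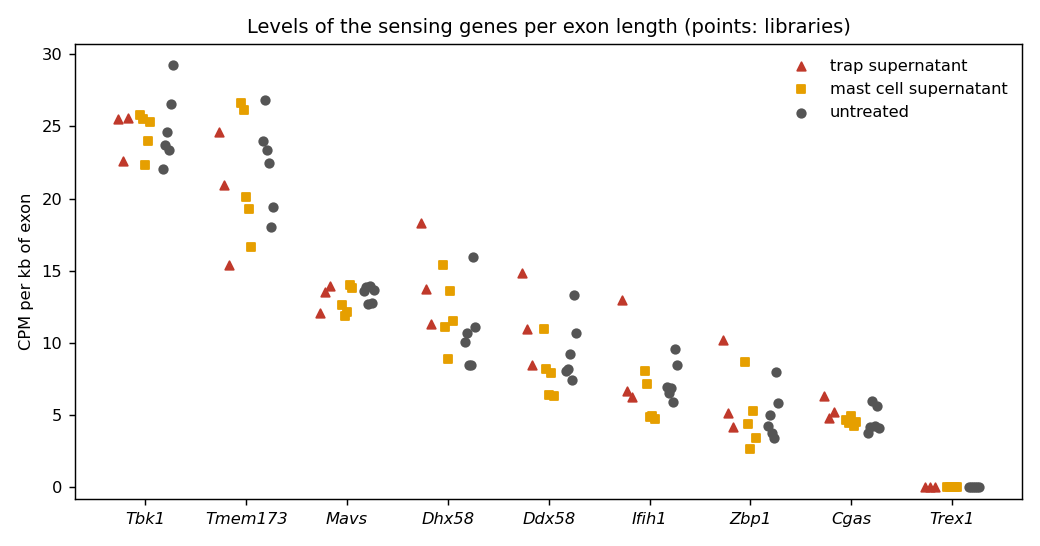
Level of each of the 9 genes in CPM per kb of merged exon, with 1 point per library for trap supernatant, mast cell supernatant and untreated cells, ordered by the untreated mean. The order runs from Tbk1 (24.9 CPM per kb in untreated cells) to Cgas (4.65 CPM per kb), with Trex1 at 0 in all 14 libraries.

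Trex1, which encodes the exonuclease that degrades cytosolic DNA, had 0 counts in every library. With 3 counts as the limit that a count of 0 allows, counts assigned to Trex1 could be up to 0.0694 CPM over the 3 trap libraries. The limit was 0.0457 CPM over the 5 mast cell libraries and 0.0290 CPM over the 6 untreated libraries. It covers counting error only and does not bound the level of Trex1 mRNA, since its exons are shared with another gene. All 1147 exon bases of Trex1 (chr9:109057933-109059734 on GRCm38, minus strand) lie inside exons of the neighbouring gene Atrip on the same strand, and Atrip had 70 counts in all libraries together. Among protein-coding genes whose exons are wholly shared in this way, 71 of 83 (85.5%) had 0 counts in all libraries, against 5600 of 20072 (27.9%) among those with no shared exon base. The part of this overlap in the zeros was not tested, and Trex1 went into no comparison. The other 8 genes share no exon base with a gene on the same strand.

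Against untreated cells, neither supernatant moved a sensing gene past the threshold once batches were modelled together. With trap supernatant 0 of 8 genes were called by edgeR's quasi-likelihood test at an adjusted p of 0.05, where 1.72% of the 13061 genes tested were. With mast cell supernatant 0 of 8 were called, where 4.79% of all genes were. DESeq2 also called 0 of the 8 in each comparison, and at an unadjusted p under 0.05 there were 1 with trap supernatant (12.8% of all genes) and 0 with mast cell supernatant (19.1%). The median log2 difference of the 8 genes was 0.20 with trap supernatant and -0.05 with mast cell supernatant, beside -0.01 over all genes in each case. With trap supernatant 5 of 8 stood above 0 (47.8% of all genes), and with mast cell supernatant 1 of 8 (48.3%). Some of these signs changed among 21 alternatives. With mast cell supernatant those of Cgas, Tmem173, Tbk1 and Zbp1 changed in 8, 2, 1 and 1. With trap supernatant those of Tbk1, Mavs and Ifih1 changed in 4, 2 and 1. Both comparisons use the same untreated libraries, and in bulk RNA fewer cells that express a gene and less of its mRNA per cell cannot be told apart. The pooled values average over batches, and the values of each batch are described gene by gene below.

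**Figure D2:**
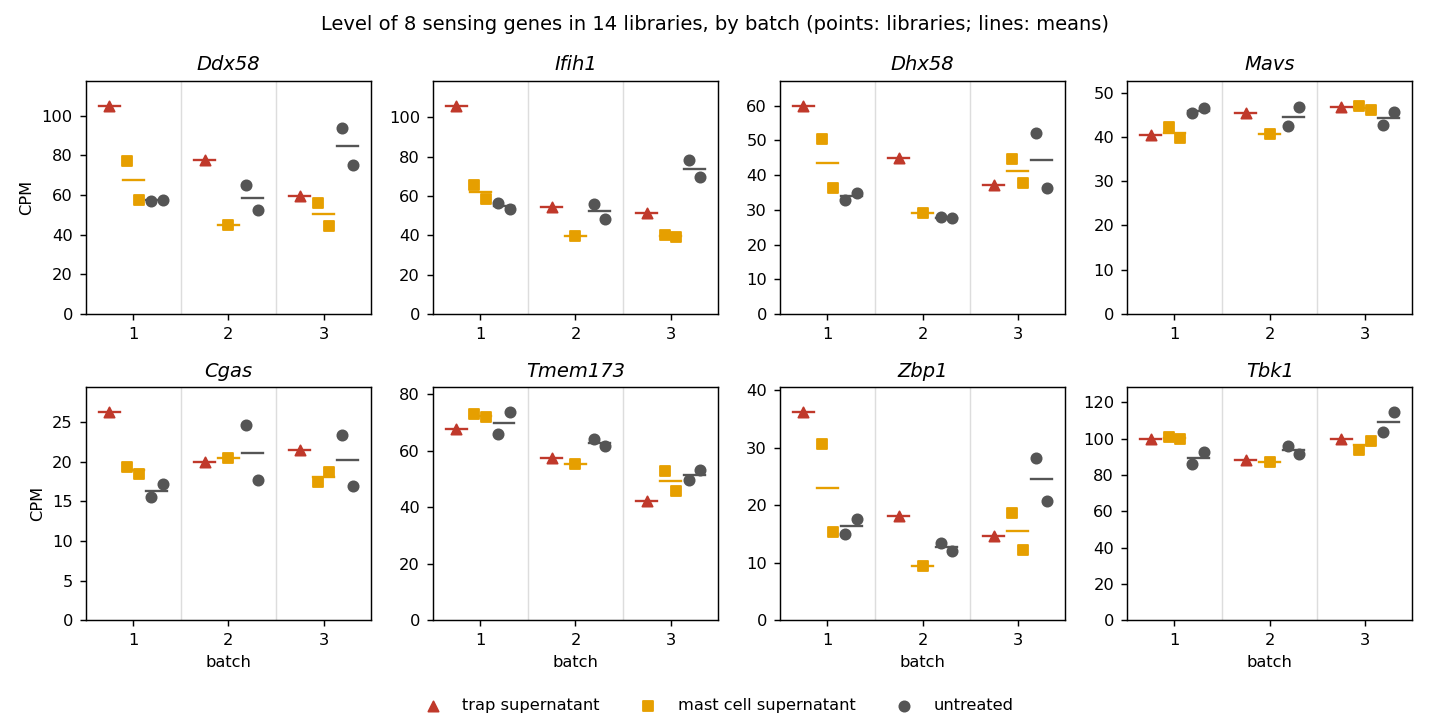
CPM of the 8 detected genes in each of the 14 libraries, by batch, with trap supernatant (triangles), mast cell supernatant (squares) and untreated cells (circles); horizontal lines are the means of a group in a batch. In batch 1 the trap library is the highest of the 5 for Ddx58, Ifih1, Dhx58, Cgas and Zbp1, and in batch 3 both untreated libraries lie above all treated ones for Ddx58, Ifih1, Zbp1 and Tbk1.

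Ddx58 encodes RIG-I, a helicase that detects RNA ends carrying a triphosphate. In batch 1 it stood at 105 CPM with trap supernatant and at 77.3 and 57.6 CPM with mast cell supernatant, against 57.0 and 57.6 CPM in untreated cells. The trap library stood far above the untreated pair there, while 1 mast cell library was level with it. Its batch 2 levels were 77.3 CPM with trap and 45.0 CPM with mast cell supernatant, against 65.1 and 52.3 CPM untreated, so the untreated pair lay between the supernatants. In batch 3 it stood at 59.6 CPM with trap and at 56.0 and 44.5 CPM with mast cell supernatant, against 93.9 and 75.3 CPM untreated. There all 3 treated libraries lay below both untreated ones. Joining both supernatants, the log2 difference from untreated was 0.48 ± 0.29 (SE), 0.06 ± 0.31 and -0.66 ± 0.28 over batches 1 to 3. None passed the threshold (adjusted p = 0.376, 0.987 and 0.208), and the test of whether the response differed between batches gave an adjusted p of 0.294.

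Ifih1 encodes MDA5, which detects long double-stranded RNA. In batch 1 it stood at 106 CPM with trap supernatant and at 65.8 and 58.3 CPM with mast cell supernatant, against 56.5 and 53.1 CPM in untreated cells. Every treated library was above the untreated pair, the trap library by far the most. Batch 2 gave 54.4 CPM with trap and 39.7 CPM with mast cell supernatant, against 56.0 and 48.2 CPM untreated. In batch 3 the levels were 51.2 CPM with trap and 40.3 and 38.9 CPM with mast cell supernatant, against 78.0 and 69.4 CPM untreated, and the groups did not overlap. The log2 difference from untreated, both supernatants joined, was 0.49 ± 0.24 in batch 1 (adjusted p = 0.285) and -0.76 ± 0.24 in batch 3, a level 1.70-fold lower (95% interval of the log2 difference -1.31 to -0.21, adjusted p = 0.0921 by edgeR's quasi-likelihood test). The test of the difference between batches gave it an adjusted p of 0.151.

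The calls for Ifih1 and Ddx58 depended on the model. When each group in each batch was given its own mean, so that the gap between the supernatants left the residual spread, Ifih1 passed the threshold upward in batch 1 (log2 difference 0.56, adjusted p = 0.00034) and downward in batch 3 (-0.71, adjusted p = 3.89e-05), and the difference between batches passed too (adjusted p = 7.46e-06). Ddx58 then passed in batch 3 (-0.63, adjusted p = 0.0309) and for the difference between batches (adjusted p = 0.0216). In that model the 1 trap library of each batch is fitted exactly and adds nothing to the spread. The spread thus rests on 5 pairs of a group in the same batch, which may be technical, and not on repeats of the response. These calls were not set beside the share of all genes called in that model. Over the 18 alternatives tried, the adjusted p of Ifih1 in batch 3 ran from 4.62e-12 to 0.279 and passed in 3, one of which left out trap supernatant replicate 1 (adjusted p = 0.00387). Without that library the difference between batches passed as well (adjusted p = 0.0359), as did the difference between untreated libraries of different batches (adjusted p = 0.0298). The adjusted p of Ddx58 in batch 3 ran from 1.16e-09 to 0.465 and passed in 2.

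**Figure D3:**
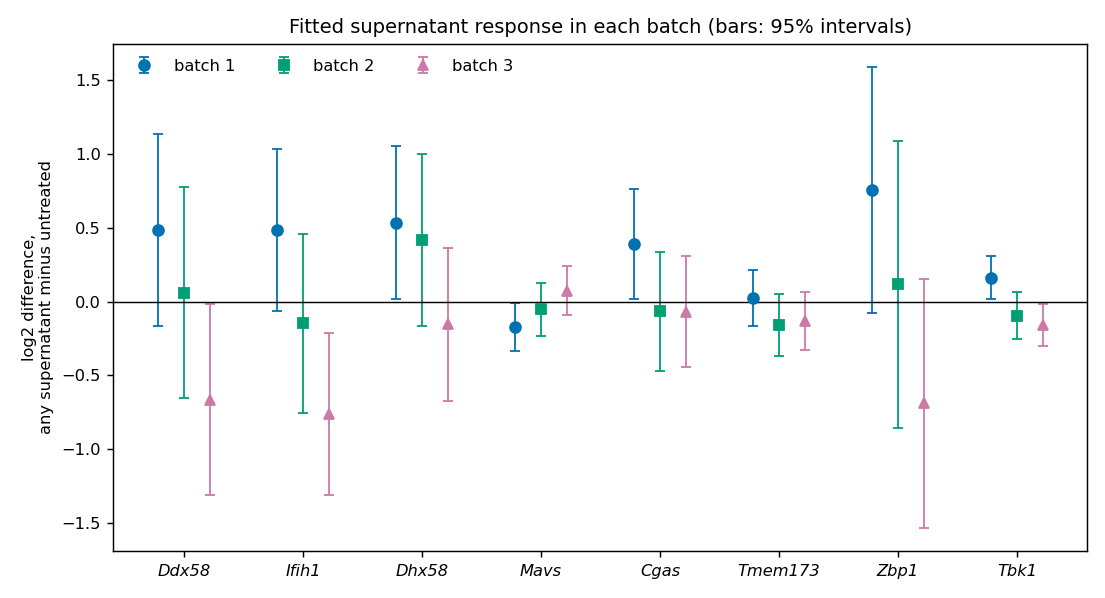
Fitted log2 difference, any supernatant minus untreated, of the 8 genes in each batch, with 95% intervals from edgeR's quasi-likelihood fit (2 or 3 treated against 2 untreated libraries per batch). All genes but Mavs stand above 0 in batch 1 and below 0 in batch 3, Mavs does the reverse, and no value passes the adjusted threshold.

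Dhx58 encodes LGP2, a relative of RIG-I and MDA5 that lacks their signalling domains and modulates both. In batch 1 it stood at 59.9 CPM with trap and at 50.5 and 36.4 CPM with mast cell supernatant, against 32.9 and 34.9 CPM in untreated cells. Its levels in batch 2 were 45.0 CPM with trap and 29.1 CPM with mast cell supernatant, against 27.8 and 27.7 CPM untreated. All treated libraries were above the untreated pair in both batches, though some only slightly. Batch 3 gave 37.1 CPM with trap and 44.6 and 37.6 CPM with mast cell supernatant, against 52.2 and 36.4 CPM untreated, so the groups overlapped. Dhx58 had the largest pooled difference between trap supernatant and untreated cells of the 8 genes, 0.45 ± 0.19 on the log2 scale (1.36-fold), and did not pass with its adjusted p of 0.337. In batch 1 its log2 difference, both supernatants joined, was 0.53 ± 0.23 with an adjusted p of 0.218, which became 0.0447 with a mean for each group and batch (range 4.0e-05 to 0.589 over 18 alternatives, 2 of them past the threshold). The opposite-strand gene Dhx58os shares 141 exon bases with Dhx58 (4.31% of its length) and had 6 counts in all.

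Mavs encodes the adaptor through which the RNA sensors signal, and it was the steadiest of the 8 genes. Its level averaged 44.1 ± 3.29 CPM with trap supernatant (n = 3), 43.2 ± 3.26 CPM with mast cell supernatant (n = 5) and 44.9 ± 1.82 CPM in untreated cells (SD, n = 6). Its whole range over the 14 libraries was 0.24 on the log2 scale, against 1.93 for Zbp1, the widest. In batch 1 all 3 treated libraries (40.4 CPM with trap, 42.2 and 39.8 CPM with mast cell supernatant) lay below both untreated ones (45.5 and 46.5 CPM). In batch 3 all 3 (46.7 CPM with trap, 47.0 and 46.2 CPM with mast cell supernatant) lay above both untreated ones (42.8 and 45.7 CPM), the reverse of Ddx58 and Ifih1. The fitted log2 differences were small, -0.17 ± 0.08 in batch 1 and 0.07 ± 0.08 in batch 3, with adjusted p of 0.212 and 0.641.

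Cgas encodes the cytosolic DNA sensor. In batch 1 it stood at 26.2 CPM with trap and at 19.3 and 18.4 CPM with mast cell supernatant, against 15.5 and 17.1 CPM in untreated cells, all treated libraries being higher. The batch 2 levels were 19.9 CPM with trap and 20.5 CPM with mast cell supernatant, between untreated values of 24.6 and 17.6 CPM. Those of batch 3 were 21.4 CPM with trap and 17.4 and 18.6 CPM with mast cell supernatant, again between untreated values of 23.3 and 16.9 CPM. The log2 difference from untreated in batch 1 was 0.39 ± 0.18 (adjusted p = 0.210), and those in batches 2 and 3 were both -0.07. The opposite-strand gene Gm8093 shares 201 exon bases with Cgas (4.87% of its length) and had 42 counts in all.

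Tmem173 encodes STING, the membrane adaptor that cGAS activates. It varied mainly between batches: batch means accounted for 84.3% of its variance over the 14 libraries, the largest share of the 8 genes. In untreated cells it stood at 65.8 and 73.5 CPM in batch 1, 64.0 and 61.6 CPM in batch 2 and 49.5 and 53.2 CPM in batch 3. This difference between untreated libraries of different batches passed the threshold (adjusted p = 0.00689 by edgeR's quasi-likelihood test), as did that of Tbk1 (adjusted p = 0.0144) and of 33.6% of all genes tested. That of Tmem173 missed the threshold when untreated replicate 4 was left out (adjusted p = 0.0507). Cell type markers differed between the same untreated libraries. The 10 macrophage markers summed to 18678 and 18994 CPM in batch 1, 11877 and 12122 CPM in batch 2 and 9299 and 10125 CPM in batch 3. The 15 neutrophil markers summed to 204 and 207, 124 and 140, and 388 and 431 CPM, and the 6 fibroblast markers, of which Lum was at 0, to 11.8 and 15.1, 139 and 145, and 8.44 and 16.8 CPM. Their part in the difference was not tested. Trap supernatant libraries stood at 67.5, 57.3 and 42.2 CPM in batches 1 to 3, and mast cell supernatant libraries at 73.1 and 71.7, at 55.1, and at 52.9 and 45.7 CPM. All groups were thus lowest in batch 3, and the pooled log2 difference, trap minus untreated, was -0.15 ± 0.07 (95% interval -0.30 to 0.00, adjusted p = 0.393).

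Zbp1 encodes a sensor of Z-form nucleic acid that can trigger cell death through RIPK3, and it had the widest spread. In batch 1 it stood at 36.1 CPM with trap and at 30.6 and 15.4 CPM with mast cell supernatant, against 15.1 and 17.6 CPM in untreated cells. One mast cell library of that batch thus stood near the trap library and the other at the untreated level. In batch 2 it stood at 18.1 CPM with trap and 9.43 CPM with mast cell supernatant, on either side of 13.4 and 12.1 CPM untreated. In batch 3 it stood at 14.7 CPM with trap and at 18.7 and 12.2 CPM with mast cell supernatant, all below the 28.3 and 20.7 CPM of untreated cells. Its log2 differences of 0.76 ± 0.37 in batch 1 and -0.69 ± 0.37 in batch 3 did not pass (adjusted p = 0.275 and 0.325).

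Tbk1 encodes the kinase shared by both arms, and its differences were small but separated the groups in every batch. In batch 1 it stood at 99.9 CPM with trap and at 101 and 99.7 CPM with mast cell supernatant, against 86.3 and 92.7 CPM in untreated cells. In batch 2 it stood at 88.4 CPM with trap and 87.2 CPM with mast cell supernatant, against 96.1 and 91.5 CPM untreated. In batch 3 it stood at 100.03 CPM with trap and at 93.8 and 98.9 CPM with mast cell supernatant, against 104 and 114 CPM untreated. Treated libraries were thus all above the untreated pair in batch 1 and all below it in batches 2 and 3. The log2 differences were 0.16 ± 0.07 (adjusted p = 0.170), -0.10 ± 0.07 (0.797) and -0.16 ± 0.07 (0.167). The test of the difference between batches gave an adjusted p of 0.112, the lowest of the 8 genes, which passed only when untreated replicate 3 was left out (0.0306) among 18 alternatives (up to 0.501). The difference of its untreated level between batches, given above, was lost without untreated replicate 1 (adjusted p = 0.0722), without untreated replicate 6 (adjusted p = 0.139), and with no filter on low counts (adjusted p = 0.0644).

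Counted over the 8 genes, every treated library lay above both untreated libraries for 5 in batch 1 (Dhx58, Tbk1, Ifih1, Cgas and Ddx58), as it did for 21.7% of all genes tested. Every treated library lay below both for 4 in batch 3 (Tbk1, Ifih1, Zbp1 and Ddx58), as for 17.3% of all genes. Tbk1, Ifih1 and Ddx58 did both, as did 5.37% of all genes, and Mavs did the opposite, as did 3.48%, being wholly below in batch 1 (24.0% of all genes) and wholly above in batch 3 (16.1%). In batch 2 Dhx58 lay wholly above (19.1% of all genes) and Tbk1 and Tmem173 wholly below (22.8%). The median log2 difference of the 8 genes was 0.44, -0.06 and -0.16 over batches 1 to 3, beside medians over all genes of -0.01, -0.01 and 0.00. None of the 8 was called within a batch or for the difference between batches, where 7.56% of all genes were called in batch 1, 1.19% in batch 2, 8.41% in batch 3 and 5.36% for the difference. DESeq2 called 0 of the 8 in each, and at an unadjusted p under 0.05 there were 4 in batch 1 (21.8% of all genes), 0 in batch 2 (10.5%), 3 in batch 3 (22.6%) and 2 for the difference (17.8%). The summed mast cell markers also differed between batches: they were 281, 996 and 2391 CPM in the trap libraries of batches 1 to 3, and 268 and 298, 1720, and 505 and 461 CPM in the mast cell libraries.

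Trap supernatant was compared directly with mast cell supernatant to ask whether the supernatants act differently on the sensors. Ddx58 and Ifih1 were higher in the trap library than in every mast cell library of the same batch, in all 3 batches, as were 5.93% of all genes tested. None of the 8 was lower in this way, as 6.03% of all genes were. The trap minus mast cell log2 differences of Ddx58 were 0.65, 0.78 and 0.26 in batches 1 to 3, and those of Ifih1 were 0.77, 0.46 and 0.37. For Zbp1 they were 0.73, 0.94 and -0.04, and for Dhx58 0.48, 0.63 and -0.14, so these genes were higher with trap supernatant in the first batches only. For Cgas they were 0.47, -0.04 and 0.25. Those of Mavs were -0.02, 0.16 and 0.00, and those of Tbk1 were -0.01, 0.02 and 0.05. For Tmem173 they were -0.10, 0.06 and -0.22, the trap library being below every mast cell library in batches 1 and 3.

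**Figure D4:**
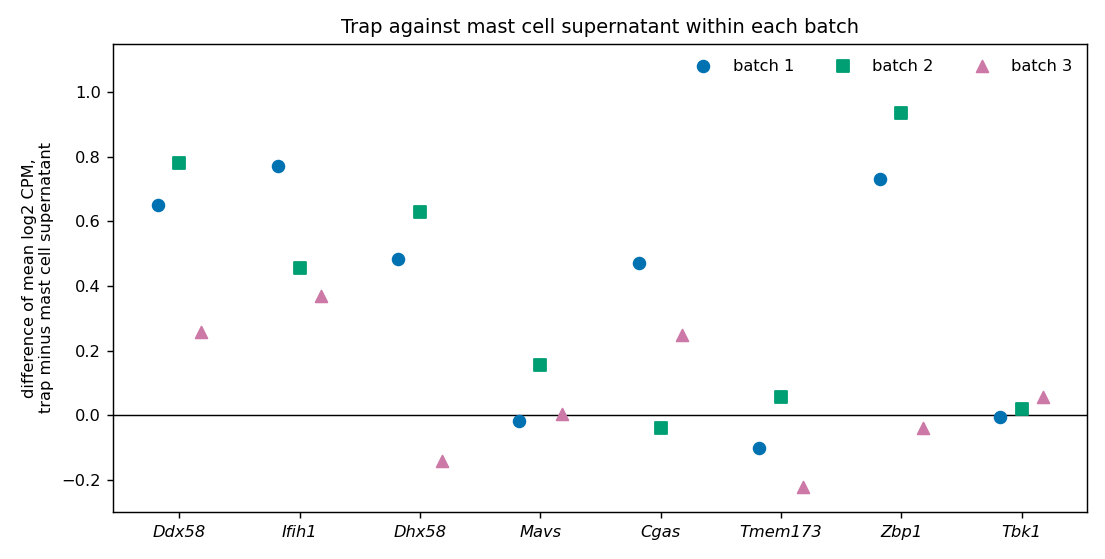
Difference of mean log2 CPM, trap minus mast cell supernatant, of the 8 genes within each batch (1 trap library against 2, 1 and 2 mast cell libraries). Ddx58 and Ifih1 lie above 0 in all 3 batches, between 0.26 and 0.78.

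In the model over all batches the log2 difference of Ifih1, trap minus mast cell supernatant, was 0.56 ± 0.23 (1.48-fold, 95% interval 0.05 to 1.07) and that of Ddx58 was 0.56 ± 0.24 (1.48-fold, interval 0.03 to 1.10). Their adjusted p was 1.0, and 0 of the 8 genes and 0.0% of all 13061 genes passed the threshold, with 569 genes and 2 of the 8 under an unadjusted p of 0.05. DESeq2 called 11 genes and none of the 8. Ifih1 passed when only trap and mast cell libraries were fitted (log2 difference 0.55, adjusted p = 0.0148), where 22 of all genes passed. It also passed with a mean for each group and batch and batches weighted equally (0.53, adjusted p = 0.000909), where 73 of all genes passed. The latter model was chosen after seeing the data, and its spread rests on the 5 pairs of a group in the same batch. These were 2 of 21 alternatives, whose adjusted p reached 1.0. That second model also gave a lower Ifih1 level with mast cell supernatant than in untreated cells (-0.37, adjusted p = 0.000496), where 1424 of all genes passed. The main model, where 625 passed, gave -0.39 ± 0.20 and an adjusted p of 0.308 (range over 21 alternatives 0.000496 to 0.761). The median log2 difference of the 8 genes between the supernatants was 0.29, and 7 stood above 0, beside 50.3% of all genes.

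The promoters of Ddx58 and Ifih1 each hold the core of the interferon-stimulated response element. RefSeq promoter windows (GRCm38.p6, 250 bases before to 50 after a transcript start) were matched by symbol for 6 of the 9 genes: Ddx58, Ifih1, Mavs, Cgas, Tbk1 and Trex1. They were searched on both strands for the core of that element, GAAA followed after any 2 bases by GAAA again, and for the interferon gamma-activated site, TTC followed after any 3 bases by GAA. The core occurred in the windows of Ddx58 and Ifih1 and not in the other 4, beside 3.44% of all 32851 windows and 7 of the 13 interferon-stimulated readout genes with a window. The gamma-activated site occurred in none of the 6, beside 8.30% of all windows. These are matches of letters, not measured binding. The stretches below run 5′ to 3′ on the gene's strand, with the match in capitals. They show where it lies in Ddx58 (chr4:40239806-40239925, minus strand, bases 3 to 12 after the start, matching on the opposite strand) and in Ifih1 (chr2:62646206-62646235, minus strand, bases 33 to 42 after the start). The steady gene Mavs (chr2:131233963-131234082, plus strand) and the kinase gene Tbk1 (chr10:121586775-121586894, minus strand) are given for contrast.
Ddx58: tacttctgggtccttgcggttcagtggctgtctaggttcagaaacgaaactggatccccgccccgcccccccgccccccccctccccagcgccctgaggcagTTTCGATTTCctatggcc
Ifih1: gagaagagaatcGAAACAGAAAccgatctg
Mavs: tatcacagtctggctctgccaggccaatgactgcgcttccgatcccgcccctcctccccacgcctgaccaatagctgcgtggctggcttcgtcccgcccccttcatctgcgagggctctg
Tbk1: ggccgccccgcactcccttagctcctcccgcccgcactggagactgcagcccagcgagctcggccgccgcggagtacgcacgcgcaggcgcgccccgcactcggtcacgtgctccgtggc

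Among the 8 genes, Pearson's r of log2 CPM over the 14 libraries, after batch means were removed, was 0.941 between Ddx58 and Zbp1, 0.936 between Ddx58 and Ifih1 and 0.860 between Dhx58 and Zbp1. For Mavs r was negative to 6 of the other 7 genes, down to -0.647 (to Cgas). Tmem173 followed none of them closely, its r ranging up to 0.435 (to Tbk1). Among 9769 genes averaging 5 CPM or more, the closest to Ddx58 were Usp18 (r = 0.987), which removes ISG15 from proteins, and Oas1g (0.985), of the oligoadenylate synthetase family. Closest to Ifih1 were Slfn5 (0.974) and Helz2 (0.972), to Zbp1 Oasl2 (0.974) and Oas3 (0.965), and to Dhx58 Phf11d (0.934) and Phf11b (0.917). Mavs, Cgas, Tmem173 and Tbk1 had other nearest genes, Emc8 (0.944), Fndc3a (0.898), Acbd6 (0.912) and Nusap1 (0.933). These correlations describe the 14 libraries, which share treatment and depth between all genes, and carry no test.

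The 16 interferon-stimulated readout genes also stood on opposite sides of untreated cells in batches 1 and 3. Whether their changes came through the sensors was not tested. Their median log2 difference from untreated, both supernatants joined, was 1.11 in batch 1, where 16 of 16 stood above 0, and -1.03 in batch 3, where none did. Cxcl10, a chemokine gene shown as an example chosen after its values were seen, stood at 176 CPM with trap and at 51.3 and 52.6 CPM with mast cell supernatant in batch 1, against 25.9 and 31.5 CPM untreated, and at 36.2, 14.4 and 8.62 CPM in the treated libraries of batch 3, against 75.7 and 49.98 CPM untreated. Over all batches the list's median was 0.63 with trap and -0.56 with mast cell supernatant, each against untreated, and 1.25 for trap minus mast cell supernatant. None of the 16 passed the threshold in any comparison of the main models by edgeR's quasi-likelihood test. With a mean for each group and batch, 7 passed upward in batch 1, 6 downward in batch 3 and 8 for the difference between batches. These calls rest on the spread of 5 pairs of a group in the same batch. They were not set beside a share of all genes. Pooling those means with batches weighted equally was an alternative chosen after seeing the data. It gave 3 upward with trap (849 of all genes passed) and 6 downward with mast cell supernatant (1424 passed), each against untreated. It gave 5 upward for trap against mast cell supernatant (73 of all genes passed). Ifnb1, the interferon gene that TBK1 and IRF3 switch on, was chosen for naming after its values were seen and was too low to test. It had 1.29 CPM with trap and 0.546 and 0.945 CPM with mast cell supernatant in batch 1, where both untreated libraries had 0 counts, and at most 0.336 CPM in any library of the other batches.

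Of the kinase complexes downstream of MAVS and STING, 1 of 15 genes passed the threshold with each supernatant. Of all genes tested, 1.72% passed with trap and 4.79% with mast cell supernatant. In both cases the gene of the 15 was Ikbke, which encodes IKK-epsilon, the close relative of TBK1. Ikbke stood at 174, 144 and 188 CPM with trap supernatant in batches 1 to 3 and, with mast cell supernatant, at 177 and 164, at 134, and at 182 and 187 CPM. Untreated cells had 138 and 135, 107 and 106, and 154 and 159 CPM. Every treated library was above both untreated libraries of its batch. The log2 difference was 0.35 ± 0.05 with trap supernatant (adjusted p = 0.0011) and 0.30 ± 0.04 with mast cell supernatant (adjusted p = 0.000593). Ikbke also rose in each batch taken alone, by 0.33 (adjusted p = 0.0028), 0.38 (0.00821) and 0.25 (0.0187). These calls passed in 16, 15 and 15 of 18 alternatives. Their adjusted p reached 0.0695, 0.131 and 0.0640 by edgeR's quasi-likelihood test when a library was left out. With replicates 1 to 3 only and the number as a block, its adjusted p was 0.0631 with trap and 0.0627 with mast cell supernatant, as the calls over all genes fell to 36 with trap, against 224 in the model of 14 libraries, and to 84 with mast cell supernatant, against 625. Without a batch term its adjusted p was 0.866 with trap and 0.378 with mast cell supernatant.

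Tank, which encodes a scaffold that binds TBK1, followed the batch pattern and passed the threshold. It rose in batch 1 (log2 difference 0.56 ± 0.15, adjusted p = 0.0351), with 250 CPM in the trap and 202 and 260 CPM in the mast cell libraries, against 161 CPM in both untreated ones. It fell in batch 3 (-0.78 ± 0.14, adjusted p = 0.00534), with 129 CPM in the trap and 88.3 and 93.6 CPM in the mast cell libraries, against 183 and 174 CPM untreated. The difference between batches passed as well (adjusted p = 0.00651, and at most 0.0448 over 18 alternatives), while the rise in batch 1 was lost in 8 of the 18 (adjusted p up to 0.218). Optn, an adaptor of the same list, fell in batch 3 by 0.82 ± 0.13 (adjusted p = 0.000841).

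Among 19 tested regulators of the RIG-I-like receptors, Nlrc5 fell with mast cell supernatant (-0.44 ± 0.11, adjusted p = 0.0328) and in batch 3 (-0.70 ± 0.13, adjusted p = 0.00339), and Zcchc3 (-1.13 ± 0.23, adjusted p = 0.00584) and Trim65 (-0.65 ± 0.15, adjusted p = 0.0129) fell in batch 1. The call of Nlrc5 with mast cell supernatant was lost in 9 of 21 alternatives (adjusted p up to 0.363), among them leaving out any 1 of 6 libraries. Of 24 regulators of cGAS and STING, 2 rose in batch 1, Hmgb2 (0.46 ± 0.11) and Tollip (0.31 ± 0.09), near the 7.56% of all genes called there. None of the 24 passed in the other batches or with either supernatant over all batches. Among the nucleic acid degrading and editing enzymes, Apobec3 (-0.59 ± 0.09) and Adar (-0.45 ± 0.11) fell in batch 3. Of 8 partners of ZBP1 in cell death, Tnfaip3 (1.40 ± 0.23, adjusted p = 0.00598) and Cflar (0.77 ± 0.17, adjusted p = 0.0232) rose in batch 1. As for Tank, the difference between batches passed for Tnfaip3 (adjusted p = 0.0152), Cflar (0.0308), Hmgb2 (0.00751), Tollip (0.0423), Apobec3 (0.00672), Optn (0.0211) and Trim65 (0.0421). It passed in 8 (Trim65) to 18 (Apobec3) of 18 alternatives. Of all genes tested, 7.56% were called in batch 1, 8.41% in batch 3, 4.79% with mast cell supernatant and 5.36% for the difference. Whether these lists hold more calls than all genes do was not tested. Of 5 interferon and receptor genes tested from a list of 14, Ifnar1, which encodes a chain of the type I interferon receptor, fell with mast cell supernatant (-0.27 ± 0.05, adjusted p = 0.00433). Ifnar1 also fell in batch 1 (-0.27 ± 0.07, adjusted p = 0.0354 by edgeR's quasi-likelihood test). The calls made in batch 1 rest on its 2 untreated libraries: without untreated replicate 1 or without untreated replicate 4 all 9, Ikbke included, missed the threshold, with Tank at an adjusted p of 0.218 and 0.211. The pooled calls of Nlrc5 and Ifnar1 were lost in the fit of replicates 1 to 3 with the number as a block (adjusted p = 0.363 and 0.202).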

How the data were processed

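The deposited table holds raw read counts, whole numbers with 1 column per library and no normalisation. Per the submitters' processing notes they were made with featureCounts 2.0.0 on GRCm38, from stranded poly(A) libraries per the labels' protocols; the sources used here do not give the aligner, annotation release or strand setting. Symbols were found for 47310 of 47937 genes in GENCODE M21 and RefSeq tables, and 627 had none. All else was computed here with R 4.3.3 and edgeR 4.0.16. Genes were kept by filterByExpr (13061), scaled by TMM and fitted over all 14 libraries with robust quasi-likelihood models: group plus batch for the 3 group comparisons, and a mean for untreated and for treated libraries in each batch for the others. Adjusted p-values are Benjamini-Hochberg over all genes tested, with a threshold of 0.05, and ± beside a log2 difference is the SE. Within a batch, 2 or 3 treated libraries were set against 2 untreated ones. Log2 CPM used a prior count of 1. Precision of low genes is set by the total counts per library, 11729073 to 22720419. The fits were also run on simulated counts, whose outcome is not given here. Those counts held no batch differences besides the changes put in, unlike these data. Members and gene lists were chosen with earlier results of these data known. Genes named besides the 9 are up to 3 rising and 3 falling per list and comparison past the threshold, and the 2 closest by correlation; 1 gene under this rule is not reported here.

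The labels put replicate 1 of each group in batch 1, replicate 2 in batch 2 and replicate 3 in batch 3. Equal number among these is thus the same as equal batch. Deviations from group means correlated at 0.293 to 0.718 over genes in the 9 pairs of equal number and at -0.556 to 0.168 in the other 18. Batch was not removed, so these correlations cannot tell a pairing by number from a shared batch. Chi-square per degree of freedom was 1.82 to 14.8 for pairs of a group in the same batch and 31.2 to 77.8 for other pairs, so no library was taken as deposited more than once. Alternatives were DESeq2 1.42.0, its size factors, no filter on low counts, no batch term, the replicate block, only both groups compared, a mean for each group and batch, and leaving out each library.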

Additional observations from a re-analysis of the deposited data

Results flagged for a closer look

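Of 16 groups of 5 or 6 libraries examined for a library far from the rest, 1 held one: Dhx58 stood at 52.2 CPM in untreated replicate 3 (batch 3), above the other 5 untreated libraries, which ran from 27.7 to 36.4 CPM. Chance alone gives about 1 such group in 20. For 5 genes every treated library moved one way from the untreated mean in 1 batch and every treated library the opposite way in another, as was the case for 29.7% of all 13061 genes tested. The mean log2 difference from untreated in batch 1 minus that in batch 3 was 1.10 for Ddx58, 1.20 for Ifih1, 0.32 for Tbk1 and -0.25 for Mavs. Batch 1 minus batch 2 it was 0.41 for Cgas and 0.26 for Tbk1. These pairs of batches were not tested one by one; the joint test over 3 batches by edgeR's quasi-likelihood model gave adjusted p of 0.294 for Ddx58, 0.151 for Ifih1, 0.112 for Tbk1, 0.424 for Mavs and 0.464 for Cgas.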

How the results depend on the processing

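Of 1216 values of the 8 genes under alternatives, 1148 kept their direction and side of the threshold, 4 lost it, 31 gained it and 33 changed sign, none of those 33 past the threshold. Of 555 values of pathway genes called in the main models, 108 lost the threshold and none changed sign. Each batch holds 1 trap and 2 untreated libraries, and the causes of the changes below were not tested beyond the smaller number of libraries where some were left out.

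Without a filter on low counts 5 of the 8 genes passed in batch 1 (1620 of all genes), 1 in batch 2 (640) and 3 in batch 3 (1789). For the difference between batches 4 passed (1498 of all genes), and for the untreated level 5. The number of genes tested without the filter, and all calls for the untreated level, are not given here. These counts of the 8 genes were thus not set beside shares of all genes. DESeq2 called 409 genes for trap against untreated, 11 for trap against mast cell supernatant and 316 in batch 2. Without a batch term 15 genes passed with trap and 62 with mast cell supernatant. With the replicate block (replicates 1 to 3, paired by batch) 36 and 84 did, beside 224 and 625; it changed no call of the 8 genes. Fitting only both groups gave 22 genes and 1 of the 8 for trap against mast cell supernatant. A mean for each group and batch gave 2 of the 8 in batch 1, 2 in batch 3, 2 for the difference, and 464 genes in batch 2. Its calls over all genes in batch 1, batch 3 and for the difference are not given here. The calls of the 8 genes there were thus not set beside a share of all genes. With batches weighted equally, an alternative chosen after seeing the data, that model gave 849 genes with trap supernatant. It gave 1424 and 1 of the 8 with mast cell supernatant, and 73 and 1 of the 8 between the supernatants.

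Leaving out each library gave 97 to 280 genes for trap against untreated, 0 to 3 for trap against mast cell supernatant, 240 to 1282 in batch 1, 19 to 333 in batch 2, 418 to 1844 in batch 3, 235 to 1175 for the difference and 2751 to 4826 for the untreated level. The lowest counts came without trap supernatant replicate 3 for trap against untreated, without untreated replicate 1 in batch 1 and for the difference, without untreated replicate 5 in batch 2 and for the untreated level, and without untreated replicate 6 in batch 3. Of the 8 genes, 0 to 1 passed in batch 3, 0 to 1 for the difference and 1 to 3 for the untreated level.

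The following log2 differences changed sign. For mast cell supernatant against untreated, Cgas was 0.00051 with DESeq2 size factors, 0.0078 with only both groups and 0.0019 with a mean for each group and batch, and Tmem173 was 0.0103 with the replicate block. For trap against untreated the block gave 0.0090 for Tbk1 and 0.0148 for Mavs, and for trap against mast cell supernatant Tbk1 was -8.4e-05 without a batch term. Leaving out each library gave, for trap against untreated, -0.11 to 0.38 for Ifih1, -0.066 to 0.0255 for Mavs and -0.0585 to 0.0182 for Tbk1. For mast cell supernatant against untreated it gave -0.0709 to 0.0905 for Cgas, -0.0785 to 0.00528 for Tbk1, -0.0817 to 0.0021 for Tmem173 and -0.40 to 0.022 for Zbp1. For trap against mast cell supernatant it gave -0.0335 to 0.0402 for Tbk1. It gave -0.0551 to 0.105 for Tmem173 in batch 1. In batch 2 it gave -0.29 to 0.19 for Cgas, -0.38 to 0.40 for Ddx58, -0.39 to 0.062 for Ifih1, -0.13 to 0.0231 for Mavs and -0.43 to 0.51 for Zbp1. In batch 3 it gave -0.28 to 0.18 for Cgas and -0.39 to 0.13 for Dhx58.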
